A study of Mus musculus with 4 samples.

Results

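The genes described here mark T cells and natural killer (NK) cells, the lymphocytes that kill infected or altered cells and steer immune responses. They were read in RNA of sorted LT-HSCs (long-term haematopoietic stem cells) of the mouse, a rare marrow population that renews all blood. The set was chosen by gene symbol and not by measured value. It holds 10 of the 51912 Ensembl genes in the deposited values: the CD3 chains Cd3e, Cd3d and Cd3g, the T cell receptor constant genes Trac and Trbc2, the kinase gene Lck, the receptor genes Klrd1 and Il2rb, and the effector genes Ccl5 and Gzma. All 10 were matched by symbol. The series asked which genes Fam122a regulates, and these members serve as a check for lymphocytes other than stem cells in the sort. There were 2 libraries of Fam122a KO cells and 2 of WT cells, on the C57BL/6 strain and at 8 to 12 weeks of age. Each library was made from cells pooled from 3 animals through the gate LSK CD34- FLk2-. The labels do not give how Fam122a was deleted, in which cells, or any batch.

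A T cell reads antigen through paired receptor chains that have no signalling tail of their own. The CD3 chains sit beside them and carry the tyrosine motifs that the kinase LCK phosphorylates. NK cells lack this receptor and use other surface receptors, but share granule proteases and cytokine receptors with killer T cells. Antibodies to CD3 are commonly part of the lineage mix that is gated out when stem cells are sorted; the mix used here is not given in the sources used here.

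Expression was read as FPKM, which divides fragments by the length of the gene and the size of the library, a unit inferred from the values. The targeted gene Fam122a was at 0 FPKM in both KO libraries, against 18.4 FPKM in WT replicate 1 and 7.46 FPKM in WT replicate 2. In KO replicates 1 and 2, 3 fragments would have given 0.728 and 0.831 FPKM. WT replicate 2 stood apart: its log2 values correlated with those of KO replicates 1 and 2 at -0.185 and -0.183 across 20433 genes, against 0.852 and 0.845 for WT replicate 1 and 0.968 between the KO libraries. The correlation between the WT libraries was 0.064. These correlations are across genes, which are not independent replicates. Loci with no gene name held 1.74% and 1.81% of the summed FPKM in the KO libraries, against 9.14% and 53.9% in WT replicates 1 and 2. KO replicates 1 and 2 were therefore compared with WT replicate 1, and WT replicate 2 is given separately. Low values fell on steps that implied 5970000 to 6810000 fragments in the KO libraries, 4270000 in WT replicate 1 and 2510000 in WT replicate 2. Of the 15 stem cell and sort gate genes, 14 and 15 were at 1 FPKM or more in the KO libraries and 14 in WT replicate 1, against 11 in WT replicate 2. Cd34, whose protein the gate leaves out, was at 87.7 and 62.1 FPKM in the KO libraries and 179 FPKM in WT replicate 1.

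All 10 members were above 0 in both KO libraries and in WT replicate 1, and none passed the test between them. Their summed level was 95.2 and 84.5 FPKM in KO replicates 1 and 2, against 89.0 FPKM in WT replicate 1, so the WT value lay between the KO values. In WT replicate 2 the sum was 18.9 FPKM. Differences were tested with limma on log2(FPKM + 1), a scale that understates the change of low genes, and called at a Benjamini-Hochberg adjusted p under 0.05. All 10 members passed the filter of 1 FPKM, taken on the mean of the KO mean and WT replicate 1. Of these, 0 were called, while 13.7% of the 16580 genes tested were called in the same fit. Unadjusted, 3 members had a limma p under 0.05, as had 5826 of the 16580 genes tested. With all 4 libraries limma called 0 members and 0 of 20433 genes. In that fit 0 members and 2482 genes had an unadjusted p under 0.05. The median log2 difference of the members, KO minus WT replicate 1, was -0.25, beside -0.063 over all genes tested; the members' median was 0.258 with quantile normalization and -0.048 with equal totals, where that of all genes tested was 0.13 and 0.15. WT replicate 1 lay above both KO libraries in 5 members and below both in 3. Over all genes tested these shares were 46.2% and 40.1%.

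That 13.7% background is shaped by genes with no spread in KO. The same value stood in both KO libraries in 943 of the genes tested, 899 of them at 0, and 922 of the 943 were called. With these genes left out, a choice made after seeing the data, limma called 20.8% of genes, 6.43% as higher and 14.4% as lower, and 1 member, Lck, as higher. With genes required at 1 FPKM in 2 of the 3 libraries it called 1.60% of genes, 0.181% as higher and 1.42% as lower, and 0 members. The spread of the single WT library was taken to be like that of the KO pair, and p-values rest on 3 libraries. In bulk RNA, fewer cells of a type and less RNA per cell cannot be told apart.

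**Figure D1:**
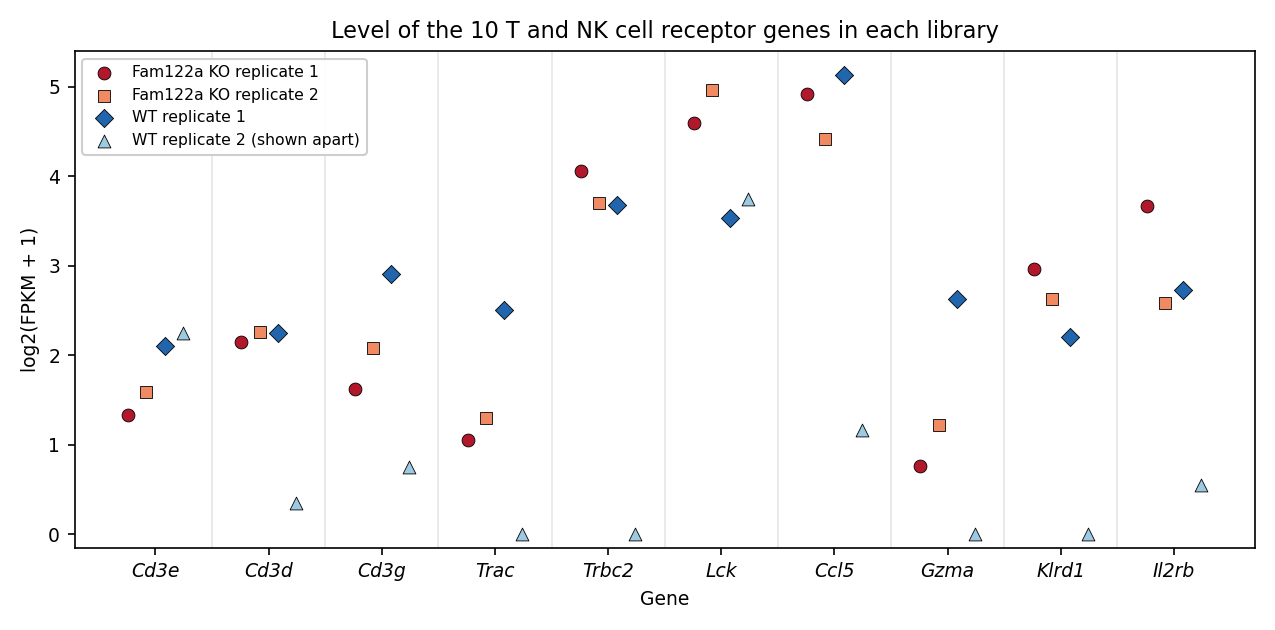
Level of each gene on the log2(FPKM + 1) scale (vertical axis) by gene (horizontal axis), with 1 marker per library: Fam122a KO replicates 1 and 2, WT replicate 1 and, shown apart, WT replicate 2. WT replicate 1 lies above both KO markers for Cd3e, Cd3g, Trac, Ccl5 and Gzma and below both for Trbc2, Lck and Klrd1; WT replicate 2 is at 0 for Trac, Trbc2, Gzma and Klrd1.

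The CD3 chains were low in every library. Cd3e (ENSMUSG00000032093, GRCm38 chromosome 9, 44998740 to 45009627, minus strand), whose protein pairs with both other chains, was at 1.51 and 2.01 FPKM in KO replicates 1 and 2, against 3.31 FPKM in WT replicate 1. Both KO libraries were lower than WT replicate 1, and the difference did not pass (log2 difference -0.65, SE 0.187, limma adjusted p = 0.181) and had the other sign with quantile normalization (0.199). Cd3d (ENSMUSG00000032094, chromosome 9, 44981786 to 44987339, plus strand) was at 3.42 and 3.80 FPKM in KO, against 3.75 FPKM in WT replicate 1. The WT value lay between the KO values (log2 difference -0.044, SE 0.170, limma adjusted p = 0.869), and the sign turned with quantile normalization (0.703) and equal totals (0.140). Cd3g (ENSMUSG00000002033, chromosome 9, 44969572 to 44980431, minus strand) was at 2.08 and 3.22 FPKM in KO, against 6.52 FPKM in WT replicate 1. It too was lower in both KO libraries without passing (log2 difference -1.06, SE 0.323, limma adjusted p = 0.191). The 3 genes lie in 1 cluster: Cd3g and Cd3d run in opposite directions from starts 1355 bases apart, and the start of Cd3e is 27841 bases beyond that of Cd3d. Summed, the chains were at 7.01 and 9.03 FPKM in KO, against 13.6 FPKM in WT replicate 1. With 36.4 to 42.7 implied fragments per chain in KO replicate 1, 35.5 to 58.0 in KO replicate 2 and 25.1 to 84.2 in WT replicate 1, each value rests on few fragments. These fragment numbers are estimates from total exonic length, and the counting error they imply is the smallest the error can be, since amplified fragments are not separate molecules.

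In WT replicate 2 the CD3 chains were listed at unlike levels, all within the background of that library. Cd3e was at 3.76 FPKM there, the highest of the 4 libraries, while Cd3d was at 0.28 FPKM and Cd3g at 0.69 FPKM. These values rest on 36.5, 1.13 and 5.30 implied fragments, and 3 fragments would have given 0.746 FPKM for Cd3d. Of 1429 olfactory and vomeronasal receptor genes, 19.5% were at or above Cd3e in that library, 55.9% at or above Cd3d and 46.7% at or above Cd3g. Cd3e was the only member whose highest value was in WT replicate 2. A predicted gene, Gm48720, lies inside Cd3e on the same strand and was listed at 0 FPKM in both KO libraries, 0.24 FPKM in WT replicate 1 and 2.41 FPKM in WT replicate 2. Its part in the Cd3e value was not tested.

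The 2 receptor constant genes differed from each other in level and in direction. Trac (ENSMUSG00000076928, chromosome 14, 54220521 to 54224206, plus strand), the constant part of the alpha chain, was at 1.07 and 1.47 FPKM in KO, against 4.66 FPKM in WT replicate 1. Trac was lower in both KO libraries and had the smallest adjusted p of the 10 members, which did not pass (log2 difference -1.32, SE 0.180, limma adjusted p = 0.0912). Those values rest on 4.99 and 6.01 implied fragments in KO and 13.7 in WT replicate 1. Trbc2 (ENSMUSG00000076498, chromosome 6, 41546730 to 41548352, plus strand), a constant part of the beta chain, was at 15.7 and 12.0 FPKM in KO, against 11.8 FPKM in WT replicate 1. The lower KO value and the WT value were nearly equal (log2 difference 0.20, SE 0.269, limma adjusted p = 0.634). Both genes were at 0 in WT replicate 2, where 3 fragments would have given 1.66 FPKM for Trac and 2.50 FPKM for Trbc2.

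Trbc2 cannot be read apart from its neighbour Trbc1 with certainty, because the genes share most of their sequence. Over the 521 coding bases, stop codon included, they are 95.6% identical, with 1 differing base in the first 360 and 22 in the last 161. The longest run without a difference is 259 bases. The untranslated bases were not compared. The stretch that holds 22 of the 23 coding differences is shown to mark where reads can most readily be told apart: the last 161 coding bases of each gene from the GENCODE M21 transcripts (GRCm38, plus strand, exons joined), in lower case with the differing bases in capitals. It runs from 41538578 to 41539665 on chromosome 6 in Trbc1 and from 41547090 to 41548181 in Trbc2.
Trbc1: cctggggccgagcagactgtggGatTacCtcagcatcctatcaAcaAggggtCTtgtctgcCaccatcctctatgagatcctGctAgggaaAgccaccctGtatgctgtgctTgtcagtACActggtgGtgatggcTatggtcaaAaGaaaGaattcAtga
Trbc2: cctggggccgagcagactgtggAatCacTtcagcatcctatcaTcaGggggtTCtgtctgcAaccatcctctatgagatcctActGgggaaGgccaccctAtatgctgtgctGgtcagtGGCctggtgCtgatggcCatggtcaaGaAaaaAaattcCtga

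How the authors treated fragments that match both genes is not given in the sources used here. Trbc1 was at 15.5 and 12.2 FPKM in KO, against 7.56 FPKM in WT replicate 1 (log2 difference 0.79, SE 0.257, limma adjusted p = 0.204). Summed, the beta constant genes were at 31.2 and 24.2 FPKM in KO and 19.4 FPKM in WT replicate 1. The ratio of this sum to Trac was 29.2 and 16.4 in KO, against 4.15 in WT replicate 1. The alpha and beta constant genes were thus listed at more unequal levels in the KO libraries, a difference that rests on the few fragments of Trac and was not tested.

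Lck was the member with the largest difference towards higher values in KO. Lck (ENSMUSG00000000409, chromosome 4, 129548344 to 129573641, minus strand), the kinase that starts signalling from the CD3 chains, was at 23.1 and 30.1 FPKM in KO, against 10.5 FPKM in WT replicate 1. Both KO libraries were higher, 2.52-fold over WT replicate 1 at their mean, and the test did not pass (log2 difference 1.25, SE 0.255, limma adjusted p = 0.133). With genes of equal KO values left out it passed (adjusted p = 0.0389). Lck was at 12.4 FPKM in WT replicate 2, the highest of the 10 members there. It did not follow the CD3 chains: Lck was 9.87 and 9.99 times their mean FPKM in KO, against 2.33 times in WT replicate 1 and 7.88 times in WT replicate 2. Between 421 and 481 implied fragments lie behind the KO values and 121 behind that of WT replicate 1.

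**Figure D2:**
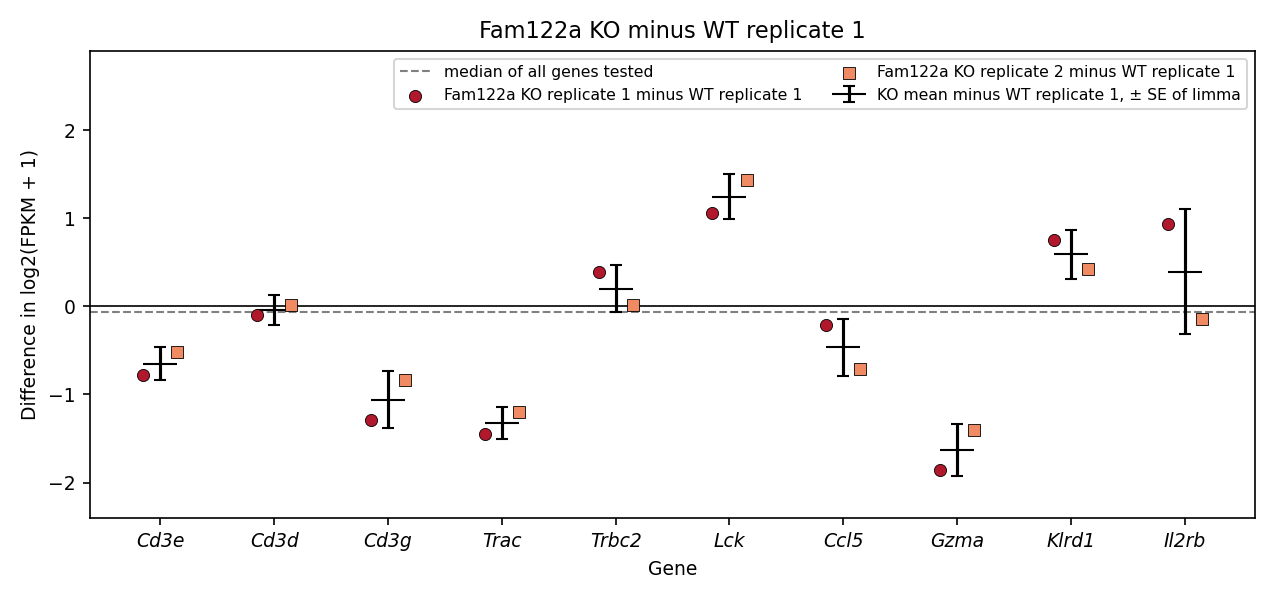
Difference in log2(FPKM + 1) between Fam122a KO and WT replicate 1 (vertical axis) for each gene (horizontal axis). Markers give each KO library minus WT replicate 1, bars the mean difference ± SE from limma, and the dashed line the median of all genes tested, -0.063; the mean differences run from -1.63 for Gzma to 1.25 for Lck, and those of Cd3d and Il2rb have a marker on each side of 0.

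The receptor genes of NK cells and cytokine response had higher KO means, and WT replicate 1 lay between the KO values for Il2rb. Klrd1 (ENSMUSG00000030165, chromosome 6, 129591782 to 129598775, plus strand) encodes CD94, which pairs with NKG2 proteins on NK cells. It was at 6.78 and 5.16 FPKM in KO, against 3.60 FPKM in WT replicate 1, higher in both KO libraries without passing (log2 difference 0.59, SE 0.280, limma adjusted p = 0.293). Il2rb (ENSMUSG00000068227, chromosome 15, 78479256 to 78495271, minus strand) encodes the beta chain shared by the interleukin-2 and interleukin-15 receptors. It was at 11.7 and 5.01 FPKM in KO, against 5.64 FPKM in WT replicate 1. The KO values lay on both sides of the WT value (log2 difference 0.40, SE 0.704, limma adjusted p = 0.717).

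The effector genes had lower KO means. Ccl5 (ENSMUSG00000035042, chromosome 11, 83525778 to 83530518, minus strand), a chemokine that memory T cells and NK cells release, was at 29.2 and 20.4 FPKM in KO, against 34.1 FPKM in WT replicate 1. It was lower in both KO libraries, and KO replicate 1 was nearer to WT replicate 1 than to KO replicate 2 (log2 difference -0.46, SE 0.323, limma adjusted p = 0.412). Gzma (ENSMUSG00000023132, chromosome 13, 113093825 to 113100981, minus strand), a serine protease of killer cell granules, was at 0.70 and 1.33 FPKM in KO, against 5.17 FPKM in WT replicate 1. Its difference was the largest in size of the 10 and did not pass (log2 difference -1.63, SE 0.295, limma adjusted p = 0.118). The KO values rest on 3.60 and 6.00 implied fragments, against 16.8 in WT replicate 1.

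FPKM is scaled to gene length, so levels can be ordered across genes. By KO mean the order was Lck (26.6 ± 4.96 FPKM, SD, n = 2 here and below), Ccl5 (24.8 ± 6.20), Trbc2 (13.8 ± 2.63), Il2rb (8.35 ± 4.72), Klrd1 (5.97 ± 1.15), Cd3d (3.61 ± 0.269), Cd3g (2.65 ± 0.806), Cd3e (1.76 ± 0.354), Trac (1.27 ± 0.283) and Gzma (1.02 ± 0.445). Neighbours whose KO ranges overlapped, and which therefore have no clear order, were Lck and Ccl5, Il2rb and Klrd1, and Trac and Gzma. In WT replicate 1 Ccl5 came first and Cd3e last. Among protein-coding genes the members stood between the percentiles 43.1 and 80.9 of level in KO replicate 1, 46.4 and 81.1 in KO replicate 2, and 47.9 and 84.5 in WT replicate 1.

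Genes of tissues that should be silent in marrow give a floor for these levels. Among 1429 olfactory and vomeronasal receptor genes the 95th percentile was 0.190 and 0.220 FPKM in the KO libraries, against 2.19 FPKM in WT replicate 1 and 15.6 FPKM in WT replicate 2. All 10 members were above it in both KO libraries and in WT replicate 1, and 0 of 10 were in WT replicate 2. Of these receptor genes, 2.52% in WT replicate 1 were at or above the level of Cd3e, against 0.280% and 0.210% in the KO libraries. For Gzma the shares were 0.560% and 0.210% in KO and 1.75% in WT replicate 1, and for Trac 0.350% and 0.210% in KO and 2.03% in WT replicate 1. The part of this floor in the low WT replicate 1 values, such as those of Trac, Gzma and Cd3e, was not tested.

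Against WT replicate 2 the members read very differently. There 8 of 10 members were below all other libraries, and 4 were listed at 0. Neither share was taken over all genes, so neither is read as a trait of the members. The median of 79 ribosomal protein genes was 13.1 FPKM in WT replicate 2. It was 357 and 300 FPKM in KO replicates 1 and 2 and 436 FPKM in WT replicate 1. Also below all other libraries were 12 of 12 neutrophil, 12 of 12 erythroid, 11 of 12 monocyte, 10 of 12 B and 9 of 12 megakaryocyte markers. In the T cell receptor, NK and transcription factor lists it was 19 of 32, 15 of 30 and 12 of 28 genes. It was 9 of 15 stem cell and sort gate genes and 2 of 30 genes of tissues outside blood. Set against WT replicate 2 in place of WT replicate 1, limma called 4 of the 8 members tested, all higher in KO (Cd3d, Trbc2, Ccl5 and Klrd1), where 78.2% of 21932 genes were called 32.1% as higher and 46.1% as lower. The genes of T and NK cells that were high in WT replicate 2 were others. Among 100 genes in the members and 3 further lists, 11 were at 10 FPKM or more in WT replicate 2 and at least 5 times the highest of the other 3 libraries. None was a member. Their genomic span was a median of 11.5 times their exonic length (2.92 to 56.2), against 5.20 (1.29 to 45.0) in the other 89 genes, members included, and 3.84 (2.35 to 8.64) in the members.

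**Figure D3:**
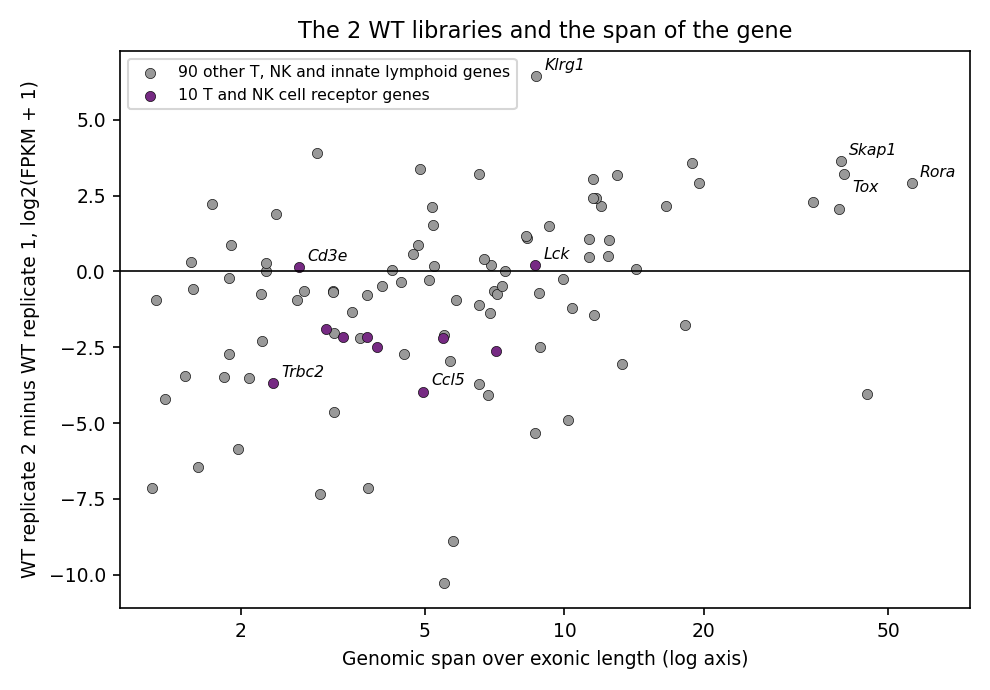
Difference between WT replicate 2 and WT replicate 1 in log2(FPKM + 1) (vertical axis) against genomic span over exonic length (horizontal log axis) for the 10 T and NK cell receptor genes and 90 other genes of T, NK and innate lymphoid cells, 1 point per gene. Of the members, Cd3e and Lck lie just above 0 and the other 8 below it, while Klrg1, Skap1, Tox and Rora are among the genes far above 0.

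Other genes of the T cell receptor pathway were more often higher than lower in KO, with 1 call. Of 32 genes in this list, 29 were tested, 19 lay above 0 and 10 below, and 1 was called as higher, against 0.814% of all genes tested called as higher and 12.9% as lower. The median log2 difference was 0.25, beside -0.063 over all genes tested. The shares of all genes above and below 0 were not taken. Counts by direction were not repeated with other scalings. The gene called, Vav1, an exchange factor downstream of antigen receptors that other blood cells use too, was at 139 and 138 FPKM in KO, against 80.8 FPKM in WT replicate 1 (log2 difference 0.77, SE 0.057, limma adjusted p = 0.0493). It did not pass with genes required at 1 FPKM in 2 libraries (adjusted p = 0.0887). The adaptor gene Lat was at 34.3 and 37.5 FPKM in KO, against 17.7 FPKM in WT replicate 1, and the kinase gene Fyn, a relative of Lck, at 36.58 and 37.97 FPKM, against 17.2 FPKM. Both were higher in each KO library and did not pass (limma adjusted p = 0.0779 for Lat and 0.0561 for Fyn). Cd27, a costimulatory receptor also found on progenitors, was at 71.8 and 55.1 FPKM in KO and 59.9 FPKM in WT replicate 1, and the adaptor gene Lcp2 at 59.1 and 49.6 FPKM and 49.7 FPKM, so that WT lay between the KO values of Cd27 and within 0.1 FPKM of one for Lcp2. Trat1, which encodes an adaptor bound to the receptor, was at 38.5 and 18.8 FPKM in KO, against 61.9 FPKM in WT replicate 1 (limma adjusted p = 0.329).

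NK receptors and cytotoxic effectors were more often lower in KO, with no call. Of 30 genes, 19 were tested, 5 lay above 0 and 14 below, and limma called 0, with 1 at an unadjusted p under 0.05, higher in KO. The median log2 difference was -0.65, beside -0.063 over all genes tested, of which 0.814% were called as higher and 12.9% as lower. Here too the shares of all genes above and below 0 were not taken, nor were other scalings. The highest levels were those of signalling adaptors that myeloid cells also use. Tyrobp was at 1297 and 1017 FPKM in KO, against 2103 FPKM in WT replicate 1, and Fcer1g at 785 and 529 FPKM, against 1222 FPKM. Nkg7, a granule membrane gene, was at 378 and 299 FPKM in KO, against 628 FPKM in WT replicate 1 (limma adjusted p = 0.160). Cst7, a protease inhibitor gene, was at 53.0 and 40.0 FPKM in KO, against 100.3 FPKM (limma adjusted p = 0.148). Hcst, the adaptor of the receptor NKG2D, was at 119 and 88.0 FPKM in KO, against 161 FPKM, and the chemokine gene Ccl3 at 46.9 and 19.8 FPKM, against 56.2 FPKM. Of the 12 neutrophil markers, 11 had lower values in KO and limma called 0, with 1 at an unadjusted p under 0.05. They had a summed level of 78067 and 67784 FPKM in KO against 177321 FPKM in WT replicate 1, with none at 0. Their part in the NK list was not tested.

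**Figure D4:**
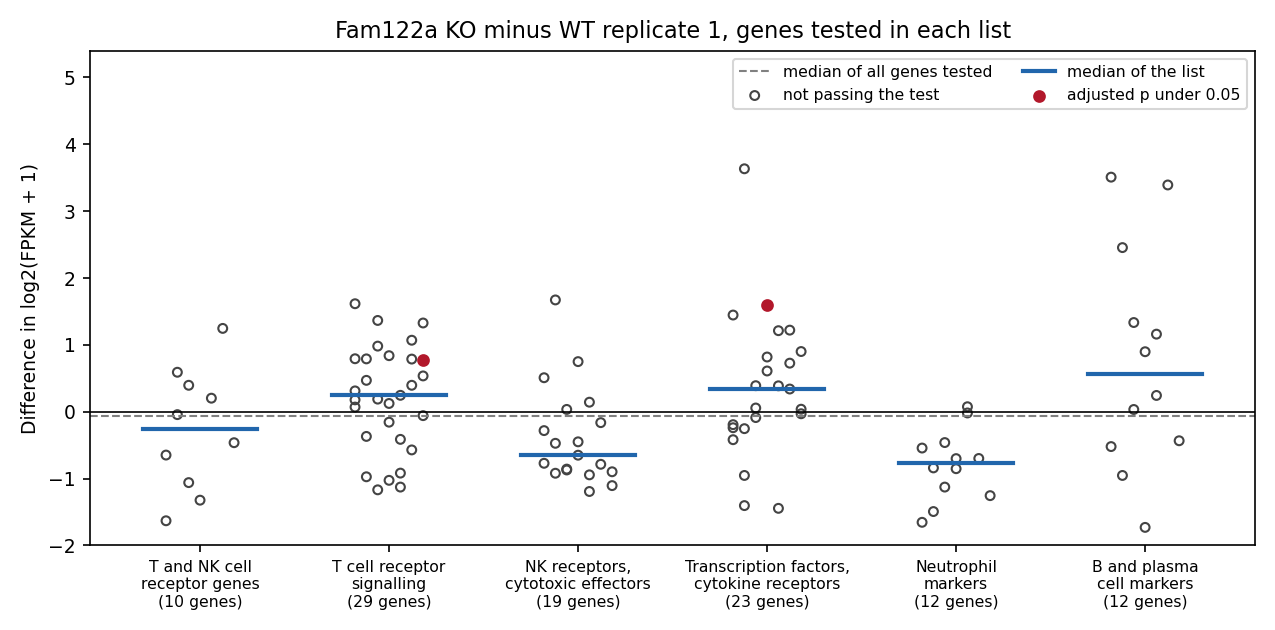
Difference in log2(FPKM + 1), Fam122a KO minus WT replicate 1 (vertical axis), for the genes tested in 6 lists (horizontal axis), 1 circle per gene. Filled circles passed an adjusted p of 0.05 (Vav1 and Il1rl1), blue bars are list medians and the dashed line is the median of all genes tested; the NK list and the neutrophil markers have medians of -0.65 and -0.77, and the members -0.25.

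Transcription factors and cytokine receptors of T, NK and innate lymphoid cells lay on both sides of 0. Their median log2 difference was 0.34, beside -0.063 over all genes tested. Of 28 genes, 23 were tested, 14 lay above 0 and 9 below, and 1 was called as higher, where 0.814% of all genes tested were. That gene, Il1rl1, the receptor for interleukin-33 on innate lymphoid and mast cells, was at 4.53 and 4.5 FPKM in KO, against 0.83 FPKM in WT replicate 1 and 4.32 FPKM in WT replicate 2 (log2 difference 1.59, SE 0.118, limma adjusted p = 0.0495). It did not pass with genes required at 1 FPKM in 2 libraries (adjusted p = 0.10). Ets1, a transcription factor of lymphocytes, was at 43.8 and 51.6 FPKM in KO, against 19.95 FPKM in WT replicate 1, higher in both without passing (limma adjusted p = 0.0911). Il2rg, the common gamma chain that joins Il2rb in its receptors, was at 130 and 96.8 FPKM in KO and 109 FPKM in WT replicate 1. Id2, an inhibitor of E proteins needed for NK cells, was at 103 and 56.5 FPKM in KO and 87.5 FPKM in WT replicate 1. For both genes WT replicate 1 lay between the KO values. The transcription factor gene Zeb2 was at 42.4 and 55.6 FPKM in KO, against 31.5 FPKM in WT replicate 1, and Nfil3, a transcription factor gene needed for NK cells, at 28.1 and 24.3 FPKM, against 19.7 FPKM.

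The summed markers of each other mature blood lineage were above those of the 10 members in KO and in WT replicate 1. Such sums depend on the genes in each list and do not rank cell types. The T cell receptor list summed to 544 and 473 FPKM in KO and 392 FPKM in WT replicate 1. The NK list summed to 2796 and 2079 FPKM in KO and 4384 FPKM in WT replicate 1. Both were above the megakaryocyte markers given below. The 12 B and plasma cell markers summed to 3824 and 6215 FPKM in KO and 6264 FPKM in WT replicate 1, with none at 0 in those 3 libraries. Igkc, an immunoglobulin light chain gene, was at 2498 and 4413 FPKM in KO and 4768 FPKM in WT replicate 1. The 12 erythroid markers summed to 60266 and 80370 FPKM in KO, against 52252 FPKM, the 12 monocyte, macrophage and dendritic markers to 2948 and 2173 FPKM, against 3708 FPKM, and the 12 megakaryocyte markers to 199 and 131 FPKM, against 240 FPKM. Of the B, erythroid, megakaryocyte, monocyte and neutrophil lists 1 gene was called, Irf8, a transcription factor of dendritic cells and monocytes, at 92.55 and 92.15 FPKM in KO, against 45.2 FPKM in WT replicate 1 (log2 difference 1.01, limma adjusted p = 0.0373). Irf8 did not pass with genes required at 1 FPKM in 2 libraries (adjusted p = 0.0720). The 10 members held 0.0116% and 0.0105% of the FPKM of Ensembl genes in KO and 0.00935% in WT replicate 1. The 30 genes of tissues outside blood summed to 5.11 and 7.59 FPKM in KO, against 77.8 FPKM in WT replicate 1 and 634 FPKM in WT replicate 2. Of 6 of these tested, 4 were called as lower in KO (Syt1, Ins2, Scgb1a1 and Trp63), where 12.9% of all genes tested were. These 4 were at 0.28 FPKM or less in both KO libraries and passed the filter only through WT replicate 1. Their direction was therefore fixed by the filter. Ins2, Scgb1a1 and Trp63 had equal values in both KO libraries. Without such genes limma called 1 of the list, and with 1 FPKM required in 2 libraries it called 0.

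The protein-coding genes with the profile nearest to that of Cd3e over the 4 libraries, by Euclidean distance on the log2(FPKM + 1) scale, were Pkd2 (distance 0.276), Pfkfb1 (0.307), Slc25a47 (0.419), Bbs10 (0.424) and 5430403G16Rik (0.444). None was in the T, NK or innate lymphoid lists. In all, 21870 protein-coding genes were compared over 4 libraries. Pkd2, the nearest, was at 1.87 and 2.13 FPKM in KO, against 3.08 FPKM in WT replicate 1 and 4.36 FPKM in WT replicate 2.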

How the data were processed

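The deposited files hold 1 value per feature for each of the 4 libraries, with no header. The FPKM values were made by the authors before they were deposited, and the unit is inferred here: low values step with gene length, and totals differ between libraries (816000 to 1290000). Tools listed, per the submitters' processing notes, are HISAT2 2.1.0, STAR 2.7.1a and bcl2fastq, and builds are mm10 and GRCm38.p5, listed without roles. SMART-Seq v4 was the library kit, per the labels' protocols. Of 87703 features, 51912 were Ensembl genes; 35791 MSTRG loci name no gene and were left out. Symbols, coordinates and exonic lengths came from GENCODE M21 (GRCm38).

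KO replicates 1 and 2 were compared with WT replicate 1 on log2(FPKM + 1) over 16580 genes in R 4.3.3, by limma 3.58.1 with its variance trend, with Benjamini-Hochberg adjustment. The test was run on simulated data first. Depth was estimated from single-exon genes with 1 transcript, after taking 215 to 250 bases off the gene length; 84.0% to 90.5% of low values then lay within 0.1 of a whole fragment. Intervals and floors cover counting error only. The labels call the libraries biological replicates of pooled animals and give no litter or day. Named list genes were the 6 highest by mean level in each T, NK and innate list, the 3 highest in the other lists, and any gene called; for the lists other than T, NK and innate cells only some of these are printed. Of the genes this rule names, 1 is not reported here. The members and lists were chosen with earlier results of these data known. Of the list symbols, Trgc1, Trgc2 and Trgc4 were matched through RefSeq synonyms. Alternatives covered the filter, pseudocount, scaling, prior, threshold, libraries and the replicate block.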

Additional observations from a re-analysis of the deposited data

Results flagged for a closer look

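Some genes of T, NK and innate lymphoid cells were listed far higher in WT replicate 2, which the comparison does not use, than in WT replicate 1 and both KO libraries. In the same library genes that blood cells are not known for were also high, with Syt1 at 279 FPKM, Trp63 at 191.5 FPKM and a 95th percentile of 15.6 FPKM over 1429 olfactory and vomeronasal receptor genes, above Bcl11b and Txk below. Each of 11 list genes was at 10 FPKM or more there and at least 5 times the highest of the other 3 libraries. The highest were Skap1 (245 FPKM), an adaptor gene of T cells, Tox (191 FPKM) and Rora (187 FPKM), transcription factor genes of lymphocytes, and Klrg1 (168 FPKM), an inhibitory receptor gene. Klra4 (42.9 FPKM), Klri2 (21.8 FPKM) and Cd226 (31.0 FPKM) encode NK receptors. Icos (31.4 FPKM), Sh2d1a (30.4 FPKM) and Txk (13.9 FPKM) act in T cell signalling, and Bcl11b (15.1 FPKM) sets T cell fate. The members Trac, Trbc2, Gzma and Klrd1 were at 0 in the same library. The genomic spans given above differ between these 11 genes and the members, and their part in the signal was not tested. The share of all genes that met the same rule of level was not taken.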

How the results depend on the processing

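Of 182 alternative values of the 10 member differences, 158 kept direction and side of the threshold and 20 changed sign. Settings of the filter, variance trend, prior and threshold leave a log2 difference as it is, so only the test could change. Where too few libraries were left for a test, only direction was compared. The 158 is therefore no measure of robustness. Of all 182, 6 newly passed, 2 of them among those that changed sign. They were Trac at an adjusted p under 0.1, Lck without genes of equal KO values (chosen after seeing the data), and Cd3d, Trbc2, Ccl5 and Klrd1 without WT replicate 1. Genes called numbered 2267 (135 higher), against 221 with 1 FPKM required in 2 libraries, 10026 with no filter, 813 at a mean of 5 FPKM, 1213 with a pseudocount of 0.1, 4112 at an adjusted p under 0.1 and 0 with all 4 libraries. Calls in the T, NK and innate lists numbered 2, against 0 with 1 FPKM in 2 libraries, a mean of 5 FPKM, a pseudocount of 0.1 or all 4 libraries, 1 with median of ratios or no trend, 4 with no filter or the robust prior, 7 at an adjusted p under 0.1 and 13 without equal KO values. Members called numbered 1 at an adjusted p under 0.1 and 1 without equal KO values. Leaving out a library gave 0 to 17144 genes called, 0 to 4 members called, 0 to 41 list genes called and a member median of -0.331 to 1.512, the upper ends without WT replicate 1. In the 4-library fit the median was 0.952 without KO replicate 1 and 0.897 without KO replicate 2. The members' median was 0.258 with quantile normalization, -0.048 with equal totals, -0.395 with median of ratios and 1.019 with all 4 libraries, and the ratio of sums was 1.187 with equal totals and 0.903 with median of ratios. The median over all genes tested was -0.06, against 0.13 with quantile normalization, 0.15 with equal totals and -0.21 with median of ratios. The cause of these changes was not tested.

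Signs changed with quantile normalization for Cd3e (0.199) and Cd3d (0.703), and with equal totals for Cd3d (0.140). With all 4 libraries, with or without the replicate block, they changed for Cd3d (0.902), Cd3g (0.016) and Ccl5 (1.517). Without KO replicate 1 in the 4-library fit Cd3d was 0.961, Cd3g 0.243, Trac 0.054 and Ccl5 1.269, and without KO replicate 2 Cd3d was 0.842 and Ccl5 1.765. Without WT replicate 1 they changed for Cd3d (1.847), Cd3g (1.093) and Ccl5 (3.498), while Il2rb kept its sign (2.571). Without KO replicate 1 in the 3-library comparison Cd3d (0.015) and Il2rb (-0.144) changed sign, and Ccl5 (-0.712) did not. Without KO replicate 2 in that comparison Cd3d (-0.104) and Cd3g (-1.288) kept their signs. With the replicate block, 0 genes, 0 members and 0 list genes were called and the members' median was 1.019. Same-numbered libraries deviated together with a correlation of 0.039 across genes. Because WT replicate 2 is unlike the other libraries, this value cannot decide whether the numbers pair them. The labels give no pairing, and none was used outside the replicate block. The comparison with 3 libraries could hold no block. With 2 libraries left no test was run. Trac and Gzma rest on at most 16.8 implied fragments in any library.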

Other observations

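The genes below were chosen after their values were seen. Some genes of mature T and NK cells were at low levels in both KO libraries and in WT replicate 1, while others of the same lists, such as Nkg7, Ccl5 and Lat, were not, as given above. The coreceptor gene Cd8a was at 1.14 and 1.26 FPKM in KO and 0.93 FPKM in WT replicate 1, Cd5 at 0.08 and 0.65 FPKM and 0.26 FPKM, the perforin gene Prf1 at 1.32 and 0.57 FPKM and 0.94 FPKM, and the NK receptor gene Ncr1 at 3.43 and 1.24 FPKM and 4.38 FPKM. Bcl11b was at 0.95 and 0.55 FPKM in KO and 0.94 FPKM in WT replicate 1. None of these passed or, for Cd5, Prf1 and Bcl11b, reached the filter.

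The transcription factor genes Lef1 and Tcf7 and the receptor gene Il7r, which lymphoid progenitors also use, were at higher levels in both KO libraries. Lef1 was at 23.1 and 44.7 FPKM in KO, against 1.67 FPKM in WT replicate 1 (log2 difference 3.63, SE 0.598, limma adjusted p = 0.110). Tcf7 was at 14.1 and 11.9 FPKM, against 4.12 FPKM, and Il7r at 27.4 and 32.8 FPKM, against 12.3 FPKM, and neither passed (limma adjusted p = 0.104 for Tcf7 and 0.101 for Il7r). Lef1, Tcf7 and Il7r were also above WT replicate 1 in WT replicate 2, at 23.2, 26.2 and 13.9 FPKM. Of the 23 genes tested in their list, 14 lay above 0 and 9 below. Tox, among the lower, was at 6.16 and 7.39 FPKM in KO, against 19.5 FPKM in WT replicate 1. Rora was at 7.20 and 9.40 FPKM in KO, against 24.2 FPKM. Neither passed (limma adjusted p = 0.105 for Tox and 0.119 for Rora).

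The gamma chain constant gene Trgc1 was at 32.2 FPKM in KO replicate 1, against 2.02 FPKM in KO replicate 2 and 5.91 FPKM in WT replicate 1, so 1 KO library sets its KO mean.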
